A study of Mus musculus with 9 samples.

Results

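Potassium channel genes were examined in mouse lung smooth muscle, sorted by flow cytometry. They were all protein-coding genes of the deposited table whose symbol begins with Kcn, apart from Kcnj8 and Kcnj11, which gave 69 genes among 21049 rows. Potassium channels let potassium leave the cell along its gradient, which holds the membrane negative, keeps voltage-gated calcium channels shut and so relaxes smooth muscle. Pore subunits fall into voltage-gated, calcium-activated, inward rectifier and tandem pore domain classes, and auxiliary subunits set their gating, trafficking and calcium sensitivity. In pulmonary arteries several of these channels set resting tone, and loss-of-function variants of human KCNK3 are a known cause of heritable pulmonary arterial hypertension.

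RNA was sequenced from 9 libraries in 3 groups of 3. The group total_SMC (labelled SmMCll) took in all pulmonary smooth muscle, venous cells included, of mice of genotype tg-Acta2-GFP. PASMC held pulmonary arterial smooth muscle cells from mice called ASMC-effector, of genotype Cspg4/Acta2-CreER/R26-GFP, and BSMC held bronchial smooth muscle cells from mice called NVSMC-effector, of genotype Chrm2/Acta2-CreER/R26-GFP. All 9 labels gave tamoxifen, 0.75 mg per 10 g body weight for 3 days, the Acta2-GFP animals included. In the CreER groups the reporter marks cells by drivers of Acta2 together with Cspg4 or Chrm2, and in total_SMC by the Acta2 transgene alone. In each comparison population, mouse line and reporter cannot be told apart, and no age, sex or number of animals was used here. Where nothing states that libraries came from separate animals, p-values measure the spread between these libraries, which may be technical.

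The smooth muscle genes Acta2 and Myh11 were abundant in all libraries (Myh11 10055 to 12375 in total_SMC, 11203 to 12498 in PASMC and 9171 to 11404 in BSMC, in normalized reads). All 4 genes checked against the labels of the CreER groups averaged higher in libraries labelled PASMC than in those labelled BSMC. Cspg4, named in the PASMC genotype, averaged 2003 ± 370 in libraries labelled PASMC and 1514 ± 244 in libraries labelled BSMC, without a call (0.40, adjusted p = 0.268). Chrm2, named in the BSMC genotype, averaged 327 ± 111 in libraries labelled PASMC and 164 ± 54.6 in libraries labelled BSMC. It was called higher in PASMC (0.98, adjusted p = 0.0433). Hhip and Lgr6, genes known from airway smooth muscle, averaged 7597 ± 193 and 4528 ± 374 in PASMC, against 3161 ± 298 and 2387 ± 267 in BSMC (SD, n = 3 each; all 4 genes chosen after their values were seen). Hhip (1.27, adjusted p = 9.59e-06) and Lgr6 (0.93, adjusted p = 0.000404) were both called higher in PASMC. Group names below are those of the labels. Depth, read from the spacing of the deposited values, was 8.93 to 9.90 M reads in total_SMC, 8.92 to 10.02 M in PASMC and 6.39 to 9.33 M in BSMC. The least deep libraries were BSMC replicates 1 and 3.

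Values below are the deposited whole numbers, which by their spacing are normalized and rounded read counts. A gene was tested when at least 3 libraries had a value of at least 10, which held for 48 of the 69 genes and left 21 untested, none of them above 36 in any library. Of the 48, 9 would not have passed without the libraries of some 1 group, so the counts below describe the tested genes and are not support for a shift of the whole family. Differences are log2 fold changes of value plus 1 from limma, with their standard error (SE), and a gene is called at a Benjamini-Hochberg adjusted p under 0.05 over all 15647 genes tested.

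Promoter sequence is shown for 3 genes on which the results turn: Kcnmb1 and Kcnma1, the beta 1 subunit and the pore of the large-conductance calcium-activated channel, which were both lower in total_SMC, and Kcne4, an auxiliary subunit that was higher there. Each line is the 250 bases upstream of the gene's annotated RefSeq start in build GRCm38.p6, 5′ to 3′ on the gene's strand. Capitals mark the GC box GGGCGG and the E-box CAGCTG, searched on both strands. The windows are chr11:33962763-33963012 on the + strand for Kcnmb1, chr14:24004206-24004455 on the - strand for Kcnma1 and chr1:78816661-78816910 on the + strand for Kcne4. The coordinates are not those of the authors' build mm39.
Kcnmb1: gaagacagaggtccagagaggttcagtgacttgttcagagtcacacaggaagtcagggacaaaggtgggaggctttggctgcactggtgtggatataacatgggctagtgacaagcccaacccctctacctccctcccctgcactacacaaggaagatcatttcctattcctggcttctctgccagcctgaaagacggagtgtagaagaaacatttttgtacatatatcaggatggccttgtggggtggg
Kcnma1: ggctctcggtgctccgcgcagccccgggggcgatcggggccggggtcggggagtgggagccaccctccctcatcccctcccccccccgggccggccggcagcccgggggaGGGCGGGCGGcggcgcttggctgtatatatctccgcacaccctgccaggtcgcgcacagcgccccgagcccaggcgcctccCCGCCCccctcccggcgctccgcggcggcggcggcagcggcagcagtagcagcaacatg
Kcne4: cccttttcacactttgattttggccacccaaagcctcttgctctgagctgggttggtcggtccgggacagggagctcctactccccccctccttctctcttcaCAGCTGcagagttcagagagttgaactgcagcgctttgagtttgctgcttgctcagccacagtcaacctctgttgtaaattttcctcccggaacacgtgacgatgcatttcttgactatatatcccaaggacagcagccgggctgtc
The beta subunit and the pore had unlike windows. That of Kcnma1 was 79.2% G or C, with 31 CpG dinucleotides and 3 GC boxes, 2 of which overlap. That of Kcnmb1 was 50.8% G or C, with 1 CpG and neither motif. That of Kcne4 was 53.2% G or C, with 7 CpG and 1 E-box. RefSeq windows of this length were at hand for 51 of the 69 genes, 71 windows in all. GGGCGG lay in 42.3% of these 71 windows, against 32.7% of all 32851 windows, and CAGCTG in 28.2%, against 13%. The CArG box, the binding motif of serum response factor, lay in 0 of the 71 windows and in 1.47% of all windows. A match is a description of these letters and does not show that a factor binds.

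Summed over the 69 genes, potassium channel reads made up 1159 to 1306 per M normalized reads in total_SMC, 1890 to 1995 in PASMC and 1906 to 2069 in BSMC. The total_SMC libraries lay below all others, and PASMC and BSMC overlapped. Levels between genes are compared per kb of exon. On that scale a few genes dominated each group. In total_SMC the auxiliary subunit Kcne4 alone held 32.1% of the summed level, with 962 ± 149 reads per kb, followed by Kcnk3 at 383 ± 52.5 and Kcnh2 at 297 ± 51.1. In PASMC the order was Kcnk3 (702 ± 14.7), Kcnh2 (611 ± 35.3), Kcnmb1 (574 ± 34.0) and Kcne4 (534 ± 45.2). In BSMC it was Kcnk3 (958 ± 188), Kcnmb1 (659 ± 44.1), Kcne4 (478 ± 77.9), Kcnh2 (474 ± 67.1) and Kcna5 (436 ± 77.3). Neighbours in this order whose libraries overlapped were Kcnk3, Kcnh2 and Kcnmb1 in total_SMC, Kcnh2, Kcnmb1 and Kcne4 in PASMC, and Kcne4, Kcnh2 and Kcna5 in BSMC. The 5 leading genes of each group together held 70.3% of the summed level per kb in total_SMC, 71.2% in PASMC and 77.1% in BSMC. At the same time 61 to 68 of the 69 genes had at least 1 read in a total_SMC library, 58 to 64 in PASMC and 47 to 58 in BSMC. The ranges of total_SMC and PASMC overlapped, those of PASMC and BSMC met at 58, and depth was lowest in BSMC replicates 1 and 3.

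**Figure D1:**
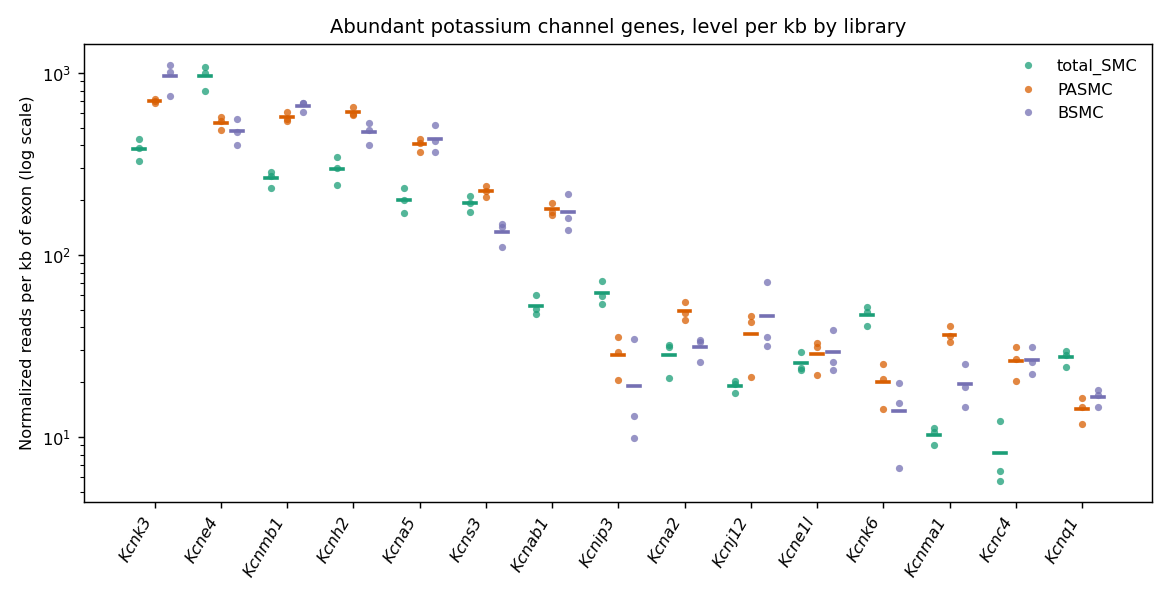
Normalized reads per kb of exon (log scale) of 15 abundant potassium channel genes, with 1 point per library and a bar at the group mean. Kcne4 leads in total_SMC, at a mean of 962 per kb, and Kcnk3 leads in PASMC and BSMC, at 702 and 958 per kb.

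By class, the summed level per kb of voltage-gated pore genes was 984 ± 114 in total_SMC, 1672 ± 82.4 in PASMC and 1373 ± 211 in BSMC. That of tandem pore domain genes was 485 ± 46.8, 761 ± 2.1 and 990.1 ± 186 in the same groups. In both classes every total_SMC library lay below every PASMC and BSMC library. Auxiliary subunits of voltage-gated channels ran the other way, at 1132 ± 150 in total_SMC, 806 ± 61.4 in PASMC and 747 ± 115 in BSMC, which is mainly Kcne4. Inward rectifiers summed to 34.5 ± 3.9, 56.7 ± 20.5 and 56.6 ± 22.3 per kb, and small and intermediate conductance genes to 45.4 ± 3.5, 36.1 ± 6.0 and 42.8 ± 9.5. These last sums overlapped between PASMC and BSMC.

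**Figure D2:**
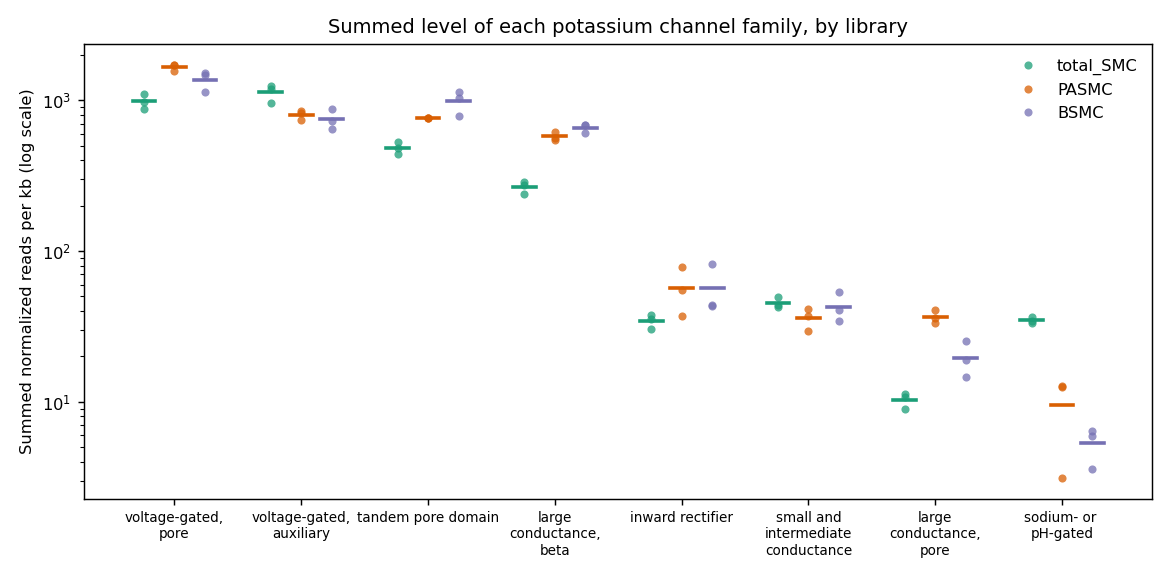
Summed normalized reads per kb (log scale) of each potassium channel class, with 1 point per library and a bar at the group mean. Voltage-gated pore genes sit at 874 to 1101 in total_SMC, below the range of 1577 to 1727 in PASMC and of 1131 to 1514 in BSMC.

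Replicates varied most in BSMC. Among the 13 genes with a mean of at least 100 over all libraries, the median coefficient of variation was 13.7% in total_SMC, 8.18% in PASMC and 19.6% in BSMC. The highest was that of Kcnip3 in BSMC, at 70.0%.

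The first comparison set total_SMC against PASMC, the whole-lung cells against the arterial cells. The large-conductance channel, the tandem pore channel gene Kcnk3 and voltage-gated channel genes including Kcna5, Kcnh2 and Kcnab1 were lower in total_SMC, while Kcne4, Kcnk6, Kcnt2 and Kcnq1 were higher. Of the 48 genes tested, 4 were called higher and 10 lower, which is 8.33% and 20.8%. Over all genes tested 9.39% were called higher and 6.83% lower. The median difference was -0.26 over the 48 genes and 0.03 over all genes. It was -0.15 without total_SMC replicate 1, and -0.76 over the 25 genes that passed a stricter filter of 50.

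The second comparison set total_SMC against BSMC, the bronchial cells. The large-conductance channel, Kcnk3, Kcnab1 and Kcna5 were lower in total_SMC, and Kcne4 and a set of less abundant genes, among them Kcnk2, Kcnk5 and Kcnt2, were higher. Here 13 of the 48 genes were called higher and 10 lower, 27.1% and 20.8%, where over all genes 23.7% were called higher and 18.2% lower. The median difference was 0.53 over the 48 genes and 0.05 over all genes. It was 0.20 without BSMC replicate 1, 0.34 with a pseudocount of 5 and -0.16 over the 25 genes of the stricter filter. Both comparisons use the same total_SMC libraries, so their values are given side by side and are not independent of each other.

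The third comparison set PASMC against BSMC. Kcnma1, Kcns3, Kcna2, Kcnq5, Kcnk2 and Kcnk5 were higher in libraries labelled PASMC, and Kcnn4 and Kcnab2 were lower. These 6 and 2 genes are 12.5% and 4.17% of the 48 tested, where over all genes 13.2% were called higher and 8.88% lower. The shares called higher are close to each other. The median difference was 0.64 over the 48 genes and 0.05 over all genes, and 0.33 over the 48 without BSMC replicate 1. Single libraries moved the count of 6, which came to 11 without BSMC replicate 2, 10 without BSMC replicate 3 and 2 without PASMC replicate 1. The count of 4 called higher in total_SMC over PASMC was 2 without PASMC replicate 1 or 2, and 1 without total_SMC replicate 1, 2 or 3. The count of 13 called higher in total_SMC over BSMC was 8 without total_SMC replicate 1 or 3. The other counts of members called moved by no more than 1.5 times when a library was left out. Over all genes, the 2062 called higher in PASMC over BSMC were 1012 without PASMC replicate 1, 1226 without PASMC replicate 2 and 3720 without BSMC replicate 2. The 1389 called lower were 777, 2978 and 897 without BSMC replicates 1, 2 and 3, and 712 and 773 without PASMC replicates 1 and 2. In total_SMC over PASMC 1470 called higher were 951 without total_SMC replicate 2, and 1069 called lower were 695 without PASMC replicate 2 and 708 without total_SMC replicate 1. In total_SMC over BSMC 2847 called lower were 1793 without total_SMC replicate 3.

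**Figure D3:**
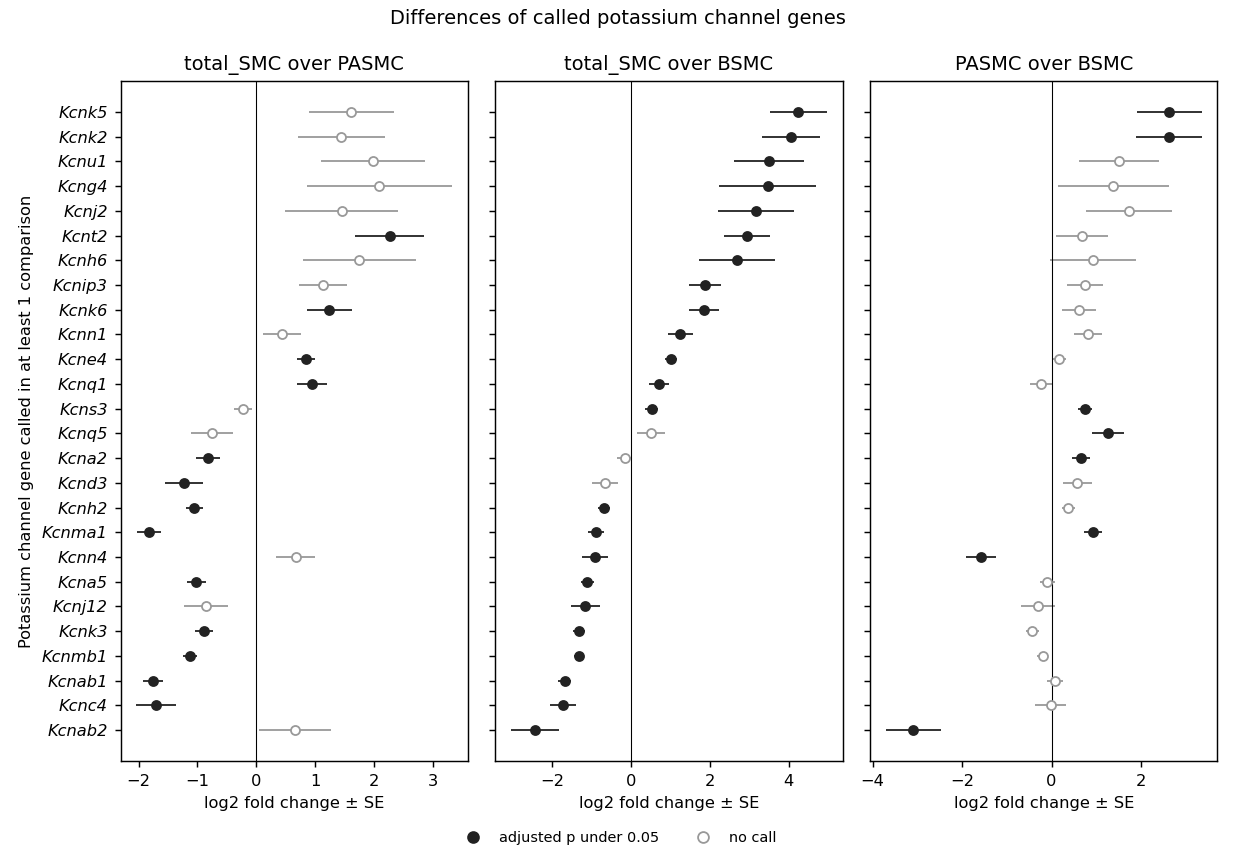
Log2 fold change (point) and SE (line) of 26 of the 27 potassium channel genes called in at least 1 comparison, for total_SMC over PASMC, total_SMC over BSMC and PASMC over BSMC. Filled points have an adjusted p under 0.05. Kcnab1, Kcnc4, Kcnmb1 and Kcnk3 lie left of 0 in both comparisons of total_SMC, and Kcne4 lies right of 0 in both.

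The large-conductance channel, opened by depolarisation and by calcium released near the membrane, is the main brake on smooth muscle contraction. Its pore gene is Kcnma1 (ENSMUSG00000063142, mm39 chromosome 14, 23339499 to 24064559), and Kcnmb1 (ENSMUSG00000020155, chromosome 11, 33913013 to 33923641) makes the smooth muscle beta subunit, which raises its calcium sensitivity. Kcnma1 had 153, 182 and 191 reads in total_SMC, 693, 562 and 609 in PASMC, and 321, 429 and 249 in BSMC. The 3 groups did not overlap, with PASMC highest and total_SMC lowest. Expression in total_SMC was below that in PASMC (-1.82, SE 0.21, adjusted p = 0.000147) and that in BSMC (-0.89, SE 0.21, adjusted p = 0.00582). It was higher in PASMC than in BSMC (0.93, SE 0.21, adjusted p = 0.00937), a call lost without PASMC replicate 1 (0.85, adjusted p = 0.0514). On implied reads, the values freed of the library factor, the difference of total_SMC over BSMC was not called (-0.71, adjusted p = 0.0849).

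Kcnmb1 had 1139, 979 and 1200 reads in total_SMC, 2565, 2295 and 2352 in PASMC, and 2873, 2863 and 2548 in BSMC. All total_SMC libraries lay far below the others, and PASMC and BSMC overlapped. Against PASMC it was lower in total_SMC (-1.12, SE 0.12, adjusted p = 7.58e-05), which is 0.459 times the PASMC level, and against BSMC (-1.32, SE 0.12, adjusted p = 9.12e-06). PASMC and BSMC were not called apart (-0.20, SE 0.12, adjusted p = 0.219). The beta and pore genes thus stood in unlike proportion in the groups: the ratio of Kcnmb1 to Kcnma1 per kb was 30.2, 21.8 and 25.4 in total_SMC, 14.99, 16.5 and 15.6 in PASMC, and 36.3, 27.03 and 41.4 in BSMC. The PASMC ratios lay below all others, and those of total_SMC and BSMC overlapped. Exonic length of Kcnma1, taken over all its annotated exons, sets the size of this ratio but not its order between libraries. Kcnmb1 lies within the span of Kcnip1 on the other strand, and Kcnip1 had at most 26 reads in any library. The other beta genes, Kcnmb2 and Kcnmb3, were not tested, with values of 0 to 12 in all libraries.

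**Figure D4:**
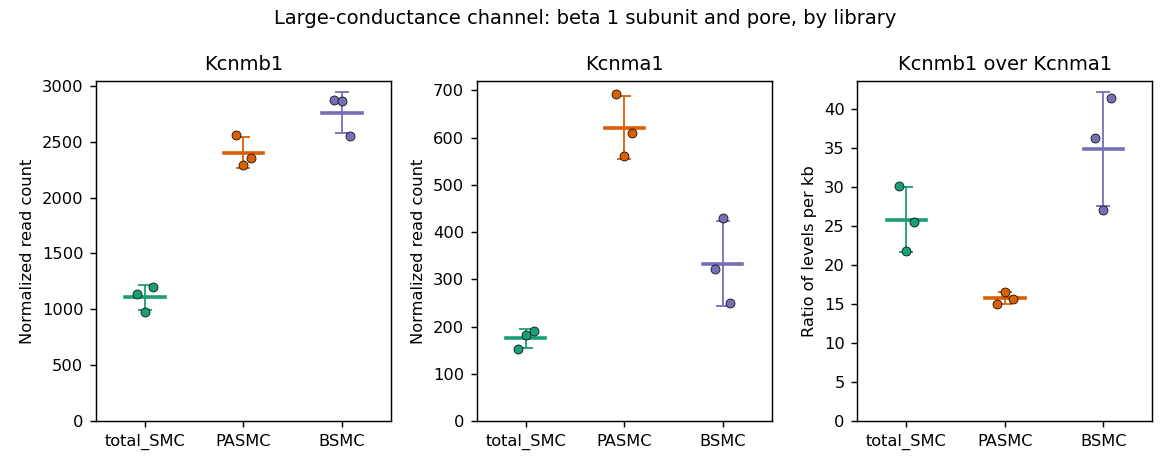
Normalized read counts of Kcnmb1 and Kcnma1 and the ratio of their levels per kb, with 1 point per library, a bar at the mean and an error bar of 1 SD (n = 3 per group). Kcnma1 is highest in PASMC, at 562 to 693, and the ratio is lowest there, at 14.99 to 16.5.

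Tandem pore domain channels carry the background leak of potassium. Kcnk3, which encodes the acid- and oxygen-sensitive TASK channel (ENSMUSG00000049265, chromosome 5, 30745514 to 30782615), had 1725, 1308 and 1537 reads in total_SMC, 2778, 2854 and 2739 in PASMC, and 4040, 2974 and 4413 in BSMC. The 3 groups did not overlap, and total_SMC was lowest. Kcnk3 was lower in total_SMC than in PASMC (-0.88, SE 0.15, adjusted p = 0.00196) and also lower than in BSMC (-1.31, SE 0.15, adjusted p = 6.49e-05). Between PASMC and BSMC the difference of -0.43 was not called (SE 0.15, adjusted p = 0.0617), though no library overlapped. It passed in 6 of 21 alternatives.

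Kcnk6, a weakly inward rectifying relative, ran the other way, with 169, 215 and 201 reads in total_SMC, 87, 59 and 105 in PASMC, and 28, 64 and 82 in BSMC. It was higher in total_SMC than BSMC (1.86, SE 0.38, adjusted p = 0.00259). Against PASMC it passed narrowly (1.24, SE 0.38, adjusted p = 0.0435) and was lost without any single library of PASMC or total_SMC, at an adjusted p of 0.0532 to 0.164. With other settings included, that call was lost in 9 of 21 alternatives. Kcnk2, the stretch- and lipid-gated TREK channel (ENSMUSG00000037624, chromosome 1, 188940127 to 189134470), had 131, 103 and 110 reads in total_SMC, 56, 43 and 29 in PASMC, and 26, 5 and 1 in BSMC. Its groups did not overlap. It was higher in total_SMC than BSMC (4.07, SE 0.73, adjusted p = 0.00123), not called against PASMC (1.45, SE 0.73, adjusted p = 0.231), and higher in PASMC than in BSMC (2.62, SE 0.73, adjusted p = 0.0268). That last call needed PASMC replicates 1 (adjusted p = 0.0975 without it) and 2 (0.0763) and BSMC replicate 3 (0.053), and was lost in 5 of 21 alternatives in all. The Kcnk2 difference of total_SMC over PASMC passed in 2 of 21, among them the fit of only these groups (adjusted p = 0.00217).

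Kcnk5, an alkaline-activated member, had 75, 66 and 47 reads in total_SMC, 11, 22 and 30 in PASMC, and 0, 3 and 8 in BSMC. Its groups did not overlap either, in the same order as Kcnk2. Its level in total_SMC was above BSMC (4.24, SE 0.72, adjusted p = 0.000872), and that in PASMC was above BSMC too (2.63, SE 0.72, adjusted p = 0.0251). The PASMC call needed BSMC replicate 1 (adjusted p = 0.0561 without it) and PASMC replicates 2 (0.0778) and 3 (0.0735), and was lost in 4 of 20 alternatives in all. Kcnk5 was not called in total_SMC over PASMC (1.61, SE 0.72, adjusted p = 0.172). That difference passed in 4 of 20 alternatives, among them the fit of only these groups (adjusted p = 0.00828). Kcnk13, at 14.7 ± 3.1 reads in total_SMC, 17.7 ± 5.1 in PASMC and 21.3 ± 16.6 in BSMC, was not called in any comparison. Kcnk1 was tested without a call, and the 5 other genes of the class, at 0 to 11 reads, were not tested.

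Voltage-gated channels open on depolarisation and limit it. Of 29 pore genes 19 were tested. In total_SMC over PASMC 1 was called higher and 6 lower, in total_SMC over BSMC 4 higher and 3 lower, and in PASMC over BSMC 3 higher and 0 lower. Over all genes 9.39% were called higher and 6.83% lower in the first comparison, 23.7% and 18.2% in the second, which is near the class, and 13.2% and 8.88% in the third. Kcnh2, the ERG channel known from cardiac repolarisation (ENSMUSG00000038319, chromosome 5, 24524587 to 24556602), had 1462, 1182 and 1676 reads in total_SMC, 3157, 2845 and 2879 in PASMC, and 1944, 2363 and 2584 in BSMC. Its groups did not overlap, with PASMC highest. In total_SMC it was below PASMC (-1.05, SE 0.15, adjusted p = 0.000538) and below BSMC (-0.68, SE 0.15, adjusted p = 0.00381), and PASMC and BSMC were not called apart (0.37, SE 0.15, adjusted p = 0.0849). Its relative Kcnh6, at 8, 16 and 11 reads in total_SMC, 1, 1 and 11 in PASMC and 0, 6 and 0 in BSMC, was called higher in total_SMC than BSMC (2.68, SE 0.96, adjusted p = 0.043). Kcnh6 would not have passed the filter without total_SMC, where it is highest, or without PASMC. The call at a few reads was lost in 7 of the 9 fits that left out 1 library, every one but those without BSMC replicate 2 or PASMC replicate 3, at an adjusted p of 0.0503 to 0.132. With other settings included, it was lost in 10 of 20 alternatives.

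Kcna5, a Shaker-type pore known for oxygen-sensitive current in pulmonary arteries (ENSMUSG00000045534, chromosome 6, 126509514 to 126512375), had 571, 487 and 668 reads in total_SMC, 1177, 1247 and 1059 in PASMC, and 1050, 1487 and 1209 in BSMC. Kcna5 was below PASMC in total_SMC (-1.02, SE 0.16, adjusted p = 0.00123), at 0.493 times the level, and below BSMC (-1.11, SE 0.16, adjusted p = 0.000318). PASMC and BSMC overlapped (-0.09, SE 0.16, adjusted p = 0.697). Kcna2, of the same subfamily, had 252, 372 and 380 reads in total_SMC, 658, 575 and 522 in PASMC, and 405, 309 and 397 in BSMC. It was highest in PASMC without overlap, lower in total_SMC than in PASMC (-0.82, SE 0.20, adjusted p = 0.014) and higher in PASMC than in BSMC (0.66, SE 0.20, adjusted p = 0.0343). The first call was lost without PASMC replicate 1 (adjusted p = 0.0666) or total_SMC replicate 1 (0.0638), and the second without BSMC replicate 1 (0.0525) or PASMC replicate 1 (0.134) or 2 (0.0922) and under 7 other alternatives.

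Kcnb2, a delayed rectifier pore gene, had 18, 29 and 22 reads in total_SMC, 71, 113 and 93 in PASMC, and 54, 24 and 0 in BSMC. All PASMC libraries were above the rest, and no call was made. PASMC over BSMC (3.04, SE 1.10, adjusted p = 0.0665) passed in 6 of 21 alternatives. In total_SMC over PASMC the difference (-1.96, SE 1.10, adjusted p = 0.289) passed in 3 of 21, among them the fit of only these groups (adjusted p = 0.000475). Kcns3, a silent subunit that modifies Kcnb channels, had 609, 544 and 672 reads in total_SMC, 713, 760 and 659 in PASMC, and 352, 470 and 452 in BSMC. It was higher in PASMC than in BSMC (0.75, SE 0.16, adjusted p = 0.00645). In total_SMC it was also higher than in BSMC (0.52, SE 0.16, adjusted p = 0.0212), a call lost without BSMC replicate 1 (0.0679) or total_SMC replicate 1 (0.0571) or 3 (0.0967) and under 4 other alternatives. Kcng4, another silent subunit, had 28, 39 and 34 reads in total_SMC, 11, 1 and 21 in PASMC, and 0, 0 and 29 in BSMC. The call over BSMC (3.47, SE 1.23, adjusted p = 0.0414) came with overlap and was lost without any library of total_SMC, without BSMC replicate 1 or 2 and without PASMC replicate 1, at an adjusted p of 0.0536 to 0.141. In all it was lost in 8 of 20 alternatives.

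The channels of Kcnq genes open below the contraction threshold. Kcnq5 had 30, 39 and 51 reads in total_SMC, 89, 52 and 64 in PASMC, and 21, 33 and 29 in BSMC. It was called higher in PASMC than in BSMC (1.26, SE 0.36, adjusted p = 0.0273), and not without BSMC replicate 1 (0.0768) or PASMC replicate 1 (0.122) or 3 (0.0573). In all that call was lost in 4 of 21 alternatives. Kcnq1 was higher in total_SMC, at 122, 116 and 99 reads against 48, 60 and 67 in PASMC (0.94, SE 0.26, adjusted p = 0.0261) and 60, 74 and 70 in BSMC (0.72, SE 0.26, adjusted p = 0.0416). Without any single total_SMC library both calls were lost, at an adjusted p of 0.0618 to 0.124. The call against PASMC was also lost without PASMC replicate 1 (0.102) or 2 (0.0689), and that against BSMC without BSMC replicate 1 (0.0916) or 3 (0.0587) or PASMC replicate 2 (0.0574). With other settings included, the PASMC call was lost in 8 of 21 alternatives and the BSMC call in 12 of 21. Kcnq1 overlaps the antisense RNA Kcnq1ot1 (82 to 313 reads), and use of strand in counting is not given in the sources used here, so reads of this pair may not be told apart. Whole spans were compared and not exons, so the same limit may hold for other genes, as 21 potassium channel genes overlap the span of another row. Among them are Kcnab2 with Nphp4 (3 to 70 reads), Kcnip4 with 5730480H06Rik (206 to 406) and Kcnh3 with Mcrs1 (509 to 641).

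Rapidly inactivating channels were at lower levels. Kcnc4 had 21, 24 and 45 reads in total_SMC, 75, 98 and 114 in PASMC, and 95, 114 and 81 in BSMC. Its level in total_SMC was lower than in PASMC (-1.70, SE 0.34, adjusted p = 0.00473) and in BSMC (-1.72, SE 0.34, adjusted p = 0.00211), while PASMC and BSMC overlapped. Kcnd3, a pore of transient outward current, had 29, 32 and 51 reads in total_SMC against 106, 77 and 79 in PASMC (-1.23, SE 0.32, adjusted p = 0.0223), and 50, 51 and 75 in BSMC. That call was lost without PASMC replicate 1, 2 or 3 or total_SMC replicate 1 or 2, at an adjusted p of 0.0518 to 0.0977. Kcnd1, its relative, had 102, 95 and 101 reads in total_SMC, 72, 53 and 50 in PASMC, and 4, 31 and 88 in BSMC, where the spread was widest. It was not called, with the closest value in total_SMC over BSMC (2.05, SE 0.77, adjusted p = 0.0503).

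Among the auxiliary subunits, Kcne4, which inhibits some voltage-gated channels, was the clearest gene to be higher in total_SMC (ENSMUSG00000047330, chromosome 1, 78794475 to 78797745). It had 2673, 2114 and 2879 reads in total_SMC, 1516, 1457 and 1285 in PASMC, and 1065, 1479 and 1264 in BSMC. All total_SMC libraries were above the rest, by 0.84 against PASMC (SE 0.15, adjusted p = 0.00288) and 1.01 against BSMC (SE 0.15, adjusted p = 0.000404). It was also the densest of the 69 genes, with up to 1.09 reads per exonic base, against 0.909 for Kcnk3 and 0.764 for Kcnmb1. Kcnh2 reached 0.684 and Kcna5 0.581. If counts are capped at such densities, the differences of Kcne4 and of these other genes are understated. Their order per kb and their shares of the summed level would be affected too. This was not tested.

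Kcnab1, a beta subunit that binds Shaker-type pores and speeds their inactivation (ENSMUSG00000027827, chromosome 3, 64856617 to 65285644), had 408, 434 and 518 reads in total_SMC, 1670, 1431 and 1489 in PASMC, and 1375, 1870 and 1182 in BSMC. It was at 0.296 times the PASMC level in total_SMC (-1.76, SE 0.17, adjusted p = 5.58e-05) and lower than in BSMC too (-1.68, SE 0.17, adjusted p = 2.69e-05), while PASMC and BSMC overlapped (0.08, SE 0.17, adjusted p = 0.765). Per kb, its ratio to Kcna5, a pore it can bind, was 0.238, 0.297 and 0.258 in total_SMC, 0.473, 0.382 and 0.468 in PASMC, and 0.436, 0.419 and 0.326 in BSMC. The total_SMC ratios lay below all others. Kcnip3, a calcium sensor that binds Kcnd channels and is also known as a transcriptional repressor, had 255, 210 and 192 reads in total_SMC, 125, 104 and 73 in PASMC, and 35, 122 and 46 in BSMC. In total_SMC it exceeded BSMC (1.88, SE 0.40, adjusted p = 0.00364) but was not called against PASMC (1.14, SE 0.40, adjusted p = 0.0828), though the libraries did not overlap. The difference from PASMC passed in 4 of 21 alternatives, among them the fit of only these groups (adjusted p = 0.00259).

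Kcnab2 had 11, 12 and 15 reads in total_SMC, 2, 14 and 13 in PASMC, and 55, 62 and 109 in BSMC. All BSMC libraries stood apart. Against BSMC, total_SMC was lower (-2.43, SE 0.61, adjusted p = 0.00843) and so was PASMC (-3.09, SE 0.61, adjusted p = 0.00428). Kcnn4, the intermediate-conductance calcium-activated channel known from lymphocytes, red cells and proliferating muscle, had 72, 74 and 65 reads in total_SMC, 30, 68 and 41 in PASMC, and 150, 98 and 160 in BSMC. PASMC was lower than BSMC (-1.58, SE 0.33, adjusted p = 0.00623). Against BSMC it was also lower in total_SMC (-0.91, SE 0.33, adjusted p = 0.0451), but that call was lost without BSMC replicate 1 or 3, PASMC replicate 3 or any total_SMC library, at an adjusted p of 0.056 to 0.128. With other settings included, it was lost in 9 of 21 alternatives. Leukocyte and erythroid markers were also highest in BSMC. Within BSMC the leukocyte sum was 1204, 795 and 1190 in replicate order, an order that Kcnab2 did not share. The 10 leukocyte markers summed to 60.01 to 95.03 per M normalized reads in total_SMC, 194 to 208 in PASMC and 795 to 1204 in BSMC. Against BSMC, 10 of 10 were lower in total_SMC and 9 of 10 in PASMC. The PASMC sum was nearly all Lyz2, at 1843, 1670 and 1689 reads, while the other 9 markers lay at 0 to 10 there and Ptprc and Cd3e were listed at 0 in all libraries. Against PASMC, 6 of 10 were higher in total_SMC and 1, Lyz2, was lower. Of 5 erythroid markers, 5 were lower in PASMC and 4 in total_SMC than in BSMC, with 0 higher. The part of leukocyte and red cell RNA in the Kcnab2 and Kcnn4 differences was not tested.

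**Figure D5:**
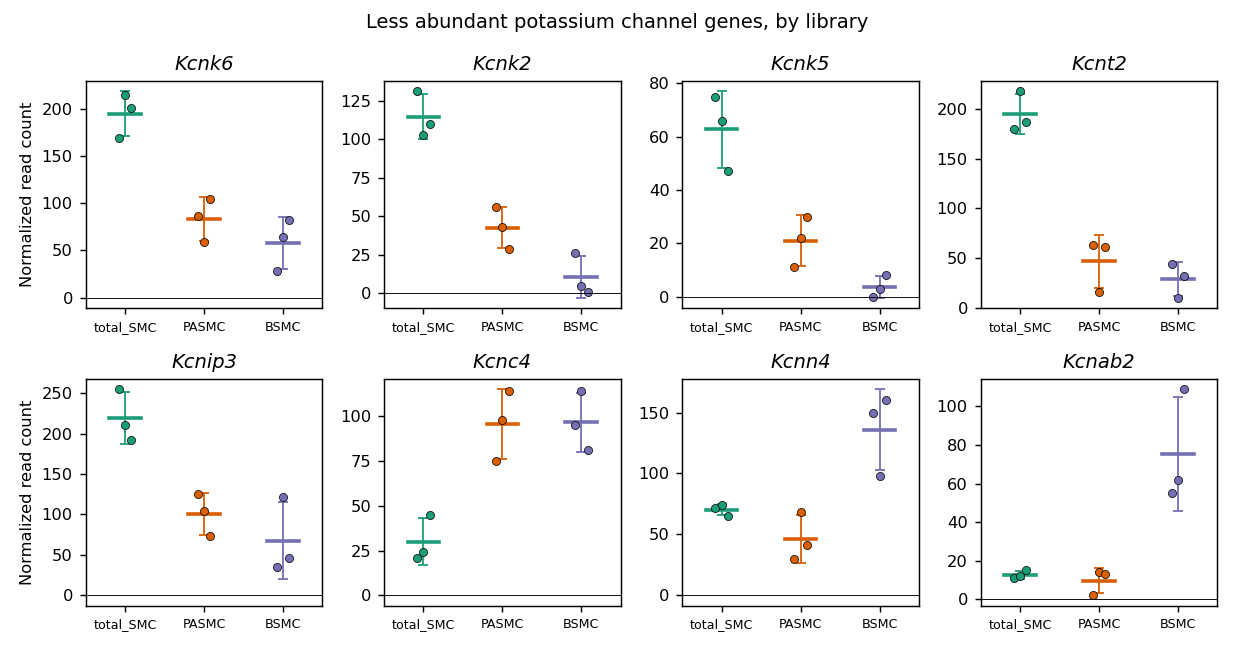
Normalized read counts of 8 less abundant potassium channel genes, with 1 point per library, a bar at the mean and an error bar of 1 SD (n = 3 per group). Kcnk6, Kcnk2, Kcnk5, Kcnt2 and Kcnip3 are highest in total_SMC, Kcnc4 is lowest there, and Kcnn4 and Kcnab2 are highest in BSMC.

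The small-conductance genes, opened by calcium alone, were low. Kcnn1 had 142, 102 and 124 reads in total_SMC, 109, 108 and 61 in PASMC, and 37, 57 and 61 in BSMC, and was higher in total_SMC than BSMC (1.25, SE 0.32, adjusted p = 0.0086). Kcnn3 averaged 32.3 ± 8.7 in total_SMC, 44.0 ± 22.3 in PASMC and 14.0 ± 12.1 in BSMC, and Kcnn2 averaged 13.3 ± 1.2, 19.7 ± 8.3 and 26.7 ± 16.3 (SD, n = 3 each). Neither was called. Kcnt2, a sodium-activated channel gene (ENSMUSG00000052726, chromosome 1, 140173896 to 140539805), was far higher in total_SMC, at 180, 218 and 187 reads, against 63, 16 and 61 in PASMC (2.26, SE 0.58, adjusted p = 0.0196) and 44, 10 and 32 in BSMC (2.94, SE 0.58, adjusted p = 0.00215). The call against PASMC was lost without PASMC replicate 2 (0.0726) or total_SMC replicate 1 (0.06), 2 (0.0795) or 3 (0.0616), and in 5 of 21 alternatives in all. Kcnu1, the pH-gated channel known from mouse sperm, had 30, 17 and 22 reads in total_SMC, 3, 3 and 12 in PASMC, and 0, 8 and 0 in BSMC (total_SMC over BSMC 3.49, SE 0.89, adjusted p = 0.00908). It would not have passed the filter without its total_SMC libraries.

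Inward rectifiers pass current best near the potassium equilibrium potential. Kcnj12 had 48, 54 and 56 reads in total_SMC, 127, 118 and 59 in PASMC, and 98, 87 and 196 in BSMC. Its level in total_SMC was below BSMC (-1.16, SE 0.37, adjusted p = 0.0269), and the call was lost without BSMC replicate 3 (0.0912) or total_SMC replicate 1 (0.0764), 2 (0.0648) or 3 (0.0637). In all it was lost in 5 of 21 alternatives. Kcnj2 had 29, 26 and 21 reads in total_SMC, 30, 1 and 13 in PASMC, and 3, 0 and 5 in BSMC. It was called higher in total_SMC than BSMC (3.18, SE 0.96, adjusted p = 0.021), lost without BSMC replicate 2 (0.0538) or total_SMC replicate 1 (0.0641), 2 (0.0624) or 3 (0.0537), and it too would not have passed the filter without total_SMC. Kcnj15, at 38.3 ± 11.7 reads in total_SMC, 24 ± 12.3 in PASMC and 25 ± 27.5 in BSMC, was not called, and neither was Kcnj5.

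Of the named genes without a call, Kcne1l averaged 39.3 ± 4.9 reads in total_SMC, 44.3 ± 9.1 in PASMC and 45.3 ± 12.9 in BSMC, which overlapped throughout. Kcnab3, at 15, 14 and 9 reads in total_SMC, 29, 24 and 24 in PASMC, and 1, 10 and 14 in BSMC, was highest in all PASMC libraries (PASMC over BSMC 1.94, adjusted p = 0.0626). Kcne3 averaged 26.7 ± 7.8 reads in total_SMC, 10.0 ± 11.1 in PASMC and 13.7 ± 5.5 in BSMC. Kcnip4 averaged 16 ± 1.7, 27.7 ± 7.6 and 39.7 ± 24.1 in the same groups, and Kcnh3 20.0 ± 10.4, 16.7 ± 11.1 and 17.3 ± 25.01. None of these 3 genes was called, and each overlapped between PASMC and BSMC.

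Marker lists also differed between total_SMC and the other groups, though not every list did so in both comparisons. The 10 smooth muscle markers summed to 3218 to 3678 per M normalized reads in total_SMC, 4137 to 4682 in PASMC and 4315 to 5022 in BSMC, with 0 higher and 4 lower against PASMC and 0 and 6 against BSMC. Among those 6, Acta2 had 4038, 3280 and 4526 reads in BSMC and rose and fell with the library factors there (1.12, 0.894 and 1.28). Lmod1, at 3430, 3668 and 3573, was also among them and did not follow the factor. Whether the most abundant genes are capped in count, so that their calls follow the factor, was not tested. Cardiac muscle markers, which mouse pulmonary veins express, summed to 311 to 343 in total_SMC, 488 to 588 in PASMC and 542 to 910 in BSMC, and 7 of 10 were lower in total_SMC than in PASMC. Mesothelial markers summed to 517 to 628 in total_SMC, 24.8 to 38.2 in PASMC and 59.5 to 144 in BSMC, with 5 of 5 higher than in PASMC. Fibroblast markers summed to 3866 to 4316, 2965 to 3250 and 2396 to 2631 in the same groups, and 3 of 8 were higher and 1 lower than in PASMC. The largest part of this sum was Col1a1, which averaged 9135, 8452 and 8402 reads in the same order and was not called. Single markers differed far more than the sum, as Pdgfra averaged 7386, 1874 and 325 and Scara5 5822, 2106 and 478. Endothelial markers summed to 756 to 956 in total_SMC, 404 to 540 in PASMC and 709 to 759 in BSMC, with 5 of 8 higher than in PASMC. The endothelial sums of total_SMC and BSMC overlapped. Against BSMC 7 of 10 cardiac markers were lower, and 4 of 5 mesothelial, 4 of 8 fibroblast and 2 of 8 endothelial markers were higher, with 0 the other way. The most abundant cardiac marker, Actc1, was not called in any comparison. At 3042, 2422 and 3497 reads in BSMC, Actc1 rose and fell with the library factor as Acta2 did. Its missing call is therefore not read as a result. Myh6 had 37, 130 and 1190 reads in BSMC. No marker of these 5 lists was at 0 in all libraries of a group. Their part in the potassium channel differences was not tested. In such bulk samples fewer cells of a type and less RNA per cell cannot be told apart.

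Other genes of potassium handling were followed in lists. Counts called in each list are to be set beside the shares called over all genes. Those shares were 9.39% higher and 6.83% lower in total_SMC over PASMC. They were 23.7% and 18.2% in total_SMC over BSMC, and 13.2% and 8.88% in PASMC over BSMC. Calcium sources that open large-conductance channels had 13 genes tested, of which 2 were higher and 4 lower in total_SMC than in PASMC, 2 higher and 5 lower than in BSMC, and 1 higher and 0 lower in PASMC than in BSMC. Cacna1c, the pore of the L-type calcium channel, averaged 221 ± 13.9 reads in total_SMC, 568 ± 105 in PASMC and 727 ± 226 in BSMC, and was lower in total_SMC by 1.34 against PASMC (log2 fold change -1.34, adjusted p = 0.00235). Jph2, which ties the plasma membrane to the calcium store, averaged 908 ± 94.8 in total_SMC, 2500 ± 518 in PASMC and 2085 ± 674 in BSMC (-1.44 against PASMC, adjusted p = 0.000927). Ryr2, the ryanodine receptor and itself one of the cardiac markers, averaged 27 ± 1 in total_SMC, 102 ± 38.8 in PASMC and 123 ± 78.9 in BSMC (-1.81, adjusted p = 0.0138). Trpv4, a calcium-permeable cation channel, ran the other way, at 131 ± 15.5 in total_SMC, 36.7 ± 4.5 in PASMC and 72.0 ± 31.1 in BSMC (1.81, adjusted p = 0.00254). The medians of this list were -0.25, -0.08 and 0.00 in total_SMC over PASMC, total_SMC over BSMC and PASMC over BSMC, and those over all genes 0.03, 0.05 and 0.05.

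Non-Kcn partners of the channels had 10 genes tested, with 0 higher and 0 lower in total_SMC over PASMC, 3 and 3 in total_SMC over BSMC, and 2 and 0 in PASMC over BSMC. Amigo1, a partner of Kcnb channels, averaged 534 ± 28.5 in total_SMC, 523 ± 52.5 in PASMC and 299 ± 94.3 in BSMC, and was higher in PASMC than in BSMC (0.86, adjusted p = 0.0204). Of 11 kinase genes 1 was higher and 2 lower in total_SMC than in PASMC, 0 and 3 against BSMC, and 1 and 1 in PASMC over BSMC, where Sgk1, a kinase that raises channel number at the membrane, was higher (0.75, adjusted p = 0.00277). Of 12 genes of potassium uptake 1 was higher and 1 lower in total_SMC than in PASMC, 5 and 2 against BSMC, and 3 and 2 in PASMC over BSMC. Atp1b2, a beta subunit of the sodium pump, averaged 1142 ± 244 in total_SMC, 2325 ± 192 in PASMC and 2760 ± 110 in BSMC (-1.04 against PASMC, adjusted p = 0.000625). In the same order of comparisons the medians were 0.05, 0.60 and 0.48 for the partners, -0.35, -0.11 and -0.03 for the kinases, and 0.10, 0.19 and 0.32 for the uptake genes. The shares called over all genes are those given with the calcium sources, and counts this small are not read as results about a list.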

How the data were processed

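RNA from sorted mouse lung smooth muscle was purified on a column with DNase digestion, and at most 10 ng was used per SMART-Seq v4 preparation, as the labels' protocols state. The submitters' processing notes name Trimmomatic 0.39, STAR 2.7.11a, Picard 3.1.1, featureCounts 2.0.4 and DESeq2 1.36.0 with build mm39, without role or order. The deposited values, recorded as a score, appear to be read counts per gene that the authors normalized and rounded. This is read from the values alone. A library factor was fitted to the spacing of whole numbers in each column and tested on simulated data. By this factor 3 columns would lack certain whole numbers, and in 6 columns certain whole numbers would be too frequent. Such gaps and repeats were not counted apart from the fit. Values divided by the factor are called implied reads. Normalized values are not raw counts, so no count model was used. The labels name no molecular identifiers, so the values count reads and not molecules. Depth bears on counting error, on detection and on which genes reach the filter. No interval was computed for single values.

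The scale of the tests was log2(value + 1). Genes with at least 10 in at least 3 libraries entered 1 limma fit of 3 group means on all 9 libraries in limma 3.58.1 under R 4.3.3, with eBayes trend and robust settings on, also tested on simulated data. GENCODE vM21 gave exonic lengths, matched on identifiers for 69 of 69 members and 96.7% of all genes. Promoter windows came from RefSeq. Figures were drawn with matplotlib 3.10.9. Members and gene lists were chosen with earlier results of these data known. Genes given with values were all members called in at least 1 comparison, the 12 most abundant without a call and 16 channels commonly described in smooth muscle, 39 in all, of which some are not reported here singly or in figures but stay in the counts; other genes are named from lists by their calls. Alternatives were 12 other settings and leaving out each of the 9 libraries.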

Additional observations from a re-analysis of the deposited data

How the results depend on the processing

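Of 45 calls of named genes, 26 held under every alternative run and 27 under every fit that left out 1 library; of 72 comparisons of named genes without a call, 43 had none under any alternative. No called gene changed direction. Member counts called higher in PASMC over BSMC (6) were 12 with array weights, 2 with only the 2 groups compared in the fit, and 2 to 11 without single libraries, and those called lower (2) were 4 after cyclic loess. In total_SMC over PASMC the 4 called higher were 2 after quantile normalization, on implied reads without scaling or without the trend and robust options, 12 with array weights or with only 2 groups, and 1 to 6 without single libraries. In total_SMC over BSMC the 13 called higher were 8 to 15 without single libraries. Over all genes, 2062 called higher in PASMC over BSMC became 1371 without trend and robust options, 1161 with 2 groups, and 1012 to 3720 without single libraries; 1389 called lower became 2106 at equal totals, 690 on implied reads, 765 with 2 groups, and 712 to 2978 without single libraries. In total_SMC over PASMC 1470 called higher became 2913 with array weights, 2565 with 2 groups and 951 to 1871 without single libraries, and 1069 called lower became 2169, 1780 and 695 to 1348. In total_SMC over BSMC 2847 called lower became 1554 on implied reads and 1793 to 3742 without single libraries. The cause of these shifts was not tested. On implied reads the median of all genes moved to 0.27 in PASMC over BSMC and 0.22 in total_SMC over BSMC, and equal totals moved total_SMC over BSMC to -0.11. With higher and lower calls, PASMC over BSMC split 1891 to 690 on implied reads, 2017 to 2072 after quantile normalization, 2028 to 2030 after cyclic loess and 1817 to 2106 at equal totals; total_SMC over BSMC, 3706 to 2847 in the fit reported, split 3392 to 1554, 3217 to 4049, 3498 to 3529 and 3042 to 4065 under the same settings. In total_SMC over PASMC the split was 1330 to 1416 after quantile normalization.

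With the replicate number as a block, member counts were 5 higher and 3 lower in PASMC over BSMC, 3 and 10 in total_SMC over PASMC, and 11 and 9 in total_SMC over BSMC, and 5 calls of named genes were lost and 1 gained. Libraries share only a number: same-numbered pairs across groups had correlations of deviations from -0.12 to 0.14, against -0.19 to 0.14 for other pairs. At the depths given, a value of 0 in a BSMC library, as for Kcnk5 and Kcnh6, does not show absence.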

Other observations

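Besides the 69 genes, the table held 2 long non-coding RNAs with a Kcn symbol. Kcnq1ot1, the antisense RNA of the imprinted Kcnq1 domain, had 108, 222 and 151 reads in total_SMC, 82, 141 and 128 in PASMC, and 232, 114 and 313 in BSMC. It was not called in any comparison (total_SMC over PASMC 0.43, SE 0.38, adjusted p = 0.55; total_SMC over BSMC -0.40, SE 0.38, adjusted p = 0.419; PASMC over BSMC -0.82, SE 0.38, adjusted p = 0.133). Kcnd3os, antisense to Kcnd3, had 0 to 10 reads in all libraries and was not tested.

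Schwann and nerve markers summed to 18.8 to 27.7 per M normalized reads in total_SMC, 53.8 to 72.3 in PASMC and 67.5 to 85.9 in BSMC, and 2 of 5 tested, Prph and Uchl1, were lower in total_SMC than in each other group. Pericyte markers summed to 1270 to 1501 in total_SMC, 1893 to 2022 in PASMC and 1629 to 1918 in BSMC, with 4 of 7 lower in total_SMC than in PASMC. Erythroid markers summed to 8.8 to 16.8 in total_SMC, 0.81 to 2.3 in PASMC and 35.0 to 84.5 in BSMC. Epithelial markers summed to 383 to 496 in total_SMC, 472 to 552 in PASMC and 476 to 577 in BSMC, and chondrocyte markers to 65.8 to 79.1, 51.0 to 96.4 and 25.9 to 33.2.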
